A study of Mus musculus with 12 samples.

Results

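Rmrp, Rpph1, Rprl1, Rprl2 and Rprl3 are the RNA of RNase MRP, the RNA of RNase P and 3 RNase P RNA-like genes of the mouse. They were taken by symbol from the deposited count tables, where they are 5 of 4529 non-coding transcripts. None of the 5 is listed more than once. Rmrp, Rpph1 and Rprl3 passed the filter on low counts and were tested among 147 transcripts, while Rprl1 and Rprl2 did not pass it and are given as counts.

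The libraries were made from small RNA of stem-like medulloblastoma cells of the mouse cerebellum. All 3 groups carry Math1-Cre and SmoM2. SmoM2 is a constitutively active Smoothened, the receptor-like transducer of Hedgehog signals, and Math1-Cre turns it on in granule neuron precursors. The first group of 4 libraries is labelled as a knockdown of Miat, a nuclear long non-coding RNA, and holds 2 libraries of the guide sgMiat-6 and 2 of the guide sgMiat-96. The second group of 4 is labelled as a knockdown of Mtdh, the gene of the protein metadherin, and has 2 libraries with sgMtdh-1 and 2 with sgMtdh-2. The control group of 4 is labelled WT and carries 1 guide, sgGal4-4, whose name refers to a yeast transcription factor. No label tells whether libraries with one guide were grown as independent cultures. The p-values therefore rest on the spread between libraries, part or all of which may be technical. Tests of a group take the libraries of its 2 guides as 4 alike. With 1 control guide, an effect of that guide cannot be told apart from an effect of the target. Age, sex and time after guide delivery are not given in the labels used here.

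RNase P and RNase MRP are related ribonucleoprotein enzymes built around an RNA, and they share most of their protein subunits. RNase P removes the leader from the 5′ end of precursor transfer RNAs, and its RNA, also called H1 RNA, is encoded by Rpph1. RNase MRP cleaves the precursor of ribosomal RNA in its internal transcribed spacer, and mutations of its RNA cause cartilage-hair hypoplasia in humans. Both RNAs are transcribed by RNA polymerase III. In small RNA libraries they are seen mostly as fragments, so the values below are counts of captured fragments and not levels of the whole RNA.

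The sequences of Rmrp, Rprl3 and the start of Rpph1 follow, because it depends on them which reads can be told apart. Positions are on GRCm38 and sequences are those of GENCODE vM21 transcripts. Rmrp lies at chr4:43492788-43493058 on the minus strand, and capitals mark the 124 bases that lie opposite exons of Ccdc107 on the plus strand. Rpph1 lies at chr14:50807449-50807767 on the minus strand, and its bases 1 to 35 at chr14:50807733-50807767 are shown with capitals at the 2 bases that differ from Rprl3. Rprl3 lies at chr8:3803125-3803358 on the minus strand, over the part that RefSeq and GENCODE share, and capitals mark its 14 differences from Rpph1.
Rmrp: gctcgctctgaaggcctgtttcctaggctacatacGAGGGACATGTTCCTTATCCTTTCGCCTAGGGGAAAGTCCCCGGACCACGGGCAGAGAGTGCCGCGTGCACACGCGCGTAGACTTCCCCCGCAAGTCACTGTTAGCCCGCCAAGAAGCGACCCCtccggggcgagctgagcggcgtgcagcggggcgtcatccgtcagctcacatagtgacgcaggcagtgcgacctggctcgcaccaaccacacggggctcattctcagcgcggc
Rpph1, bases 1 to 35: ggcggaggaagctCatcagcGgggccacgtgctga
Rprl3: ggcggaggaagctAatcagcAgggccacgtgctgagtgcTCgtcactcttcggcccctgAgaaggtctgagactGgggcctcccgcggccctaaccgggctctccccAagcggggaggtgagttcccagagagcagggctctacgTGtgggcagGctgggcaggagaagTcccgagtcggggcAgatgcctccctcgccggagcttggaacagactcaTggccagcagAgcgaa

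Rprl3 was 94.0% identical to Rpph1 over 233 aligned bases, Rprl2 was 93.2% identical over 234 and Rprl1 was 91.0% identical over 234. Each of the 3 lacked the same stretch of 21 bases that Rpph1 has. In Rpph1 those 21 bases occurred in 2 copies with at most 1 difference, and in Rprl3 in 1 copy. At the same limit Rprl1 and Rprl2 had 0 copies. The longest run shared by Rpph1 and Rprl3 was 37 bases. Of the 213 windows of 22 bases in Rprl3, 40 (18.8%) also occurred in Rpph1, as did 16 of 205 windows of 30 bases (7.80%) and none of 185 windows of 50 bases. A read of miRNA length from those windows cannot be told apart between the 2 genes, and the treatment of reads with several positions is not given in the sources used here. Some windows of 22 bases in Rprl3, on either strand, also occurred in transcripts of other genes. There were 40 in Ccnb1ip1, 10 in Gm25043, 10 in Gm6093 and 2 in Gm25863. Windows of Rpph1 occurred in these genes too, and 5 in Gm22902. Rmrp shared at most 9 bases with Rpph1, so none of its windows of 18 bases occurs in the other 4.

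Neighbouring genes also bear on the counts. Rpph1 overlaps 233 bases of an exon of Ccnb1ip1 on the same strand, and Parp2 starts 73 bases from it on the other strand. Rprl3 lies 21938 and 38737 bases from its nearest annotated neighbours. Rprl1 lies on chromosome 6 between the immunoglobulin kappa pseudogenes Igkv12-67 and Igkv12-66, and Rprl2 lies on chromosome 3. How strand was used in counting is not given in the sources used here.

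Libraries held 82457 to 161038 counts with Miat guides, 22785 to 152115 with Mtdh guides and 33737 to 64366 in controls, with repeated entries counted once. Rn45s, the ribosomal RNA precursor, took 71.2% to 83.9% of counts with Miat guides, 66.0% to 78.1% with Mtdh guides and 53.8% to 56.2% in controls. Shares of Rmrp, Rpph1 and Rprl3 are therefore given both of all counts and of counts outside Rn45s. The Miat row held 1 and 0 counts in the libraries labelled sgMiat-96, 49 and 30 in those labelled sgMiat-6, and 0, 1, 1 and 1 in controls. The sgMiat-6 libraries thus go against their label in fragment counts of the target. With so few counts in controls a knockdown could not be seen, so the sgMiat-96 counts do not bear on their label. Mtdh mRNA is not analysed here. Of the miRNAs that mark other cell types, the 4 blood rows were at 0 in all 12 libraries, the endothelial row reached at most 3 counts, the muscle rows 1 and the oligodendrocyte rows 5. Of 9 neural rows 6 had counts, among them Mir9-1, Mir9-2, Mir9-3 and Mir92b, and the 3 rows of Mir124a were at 0. The neural rows summed to 0.215% to 0.341% of counts outside Rn45s with Miat guides, 0.0694% to 0.245% with Mtdh guides and 0.493% to 0.576% in controls. Mir92b was the 1 neural row that passed the test, at log2 fold changes of -2.60 with Miat guides and -2.07 with Mtdh guides. The part of these differences in the results below was not tested.

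Rmrp, the RNA of RNase MRP, was the most fragment-rich of the 5 genes in every library, and its share was lower with both sets of guides. It took 6.43%, 7.19%, 5.91% and 2.87% of all counts in the Miat libraries, in the order sgMiat-6-1, sgMiat-6-2, sgMiat-96-1 and sgMiat-96-2. It took 8.57%, 5.38%, 4.93% and 8.06% in the Mtdh libraries, in the order sgMtdh-1-1, sgMtdh-1-2, sgMtdh-2-1 and sgMtdh-2-2, and 13.2%, 14.025%, 13.8% and 13.02% in the control libraries. The highest library with a Miat or Mtdh guide stood below the lowest control. The means were 5.60% ± 1.89 with Miat guides, 6.73% ± 1.85 with Mtdh guides and 13.5% ± 0.471 in controls (SD, n = 4 each). For both differences from control the exact permutation test, two-sided, gave p = 0.0286, which is the smallest for 4 libraries against 4. After adjustment over 15 exact tests the permutation p was 0.0476. Those 15 cover the shares of Rmrp and Rpph1 and their ratio, and leave out the exact tests of the alternatives. How many other transcripts stood apart from the controls with no overlap was not counted, here or for the shares and ratios below. Fewer cells of a type and less RNA per cell cannot be told apart in such bulk libraries. The Mtdh libraries with the higher Rmrp shares, sgMtdh-1-1 and sgMtdh-2-2, held 22785 and 32967 counts, with Rn45s at 68.4% and 66.0%. Those with the lower shares, sgMtdh-1-2 and sgMtdh-2-1, held 152115 and 148611 counts, with Rn45s at 75.8% and 78.1%. The part of depth and Rn45s load in the Rmrp share was not tested.

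Outside Rn45s the Rmrp share differed less between the groups but still did not overlap. It was 23.8%, 25.7%, 20.5% and 17.8% in the Miat libraries, 27.1%, 22.3%, 22.5% and 23.7% in the Mtdh libraries, and 30.05%, 31.0%, 29.7% and 29.7% in controls. The sgMiat-96 libraries were the lowest and the sgMtdh-1-1 library came nearest to the controls. The means were 21.95% ± 3.50, 23.9% ± 2.22 and 30.1% ± 0.590 for Miat guides, Mtdh guides and controls (SD, n = 4 each; exact permutation p = 0.0286 for each target against control). The control libraries, which carry 1 guide, varied less than either other group, each of which pools 2. They also varied less than the 2 libraries of any single guide. The SD of this share was 3.42 for sgMtdh-1, 1.92 for sgMiat-96, 1.30 for sgMiat-6 and 0.798 for sgMtdh-2 (n = 2 each), against 0.590 in controls. The part of pooling in the spread was not tested. Exact binomial intervals at the 95% level reached at most 1.03 points to either side, and such intervals cover counting error only. Mtdh and Miat libraries differed by 1.94 points (exact permutation p = 0.4, n = 4 each).

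Scaled by TMM over all tested transcripts, Rmrp did not pass the test at the group level. Its log2 fold change was -0.45 (SE 0.20) with Miat guides, with an adjusted p of 0.175 (quasi-likelihood test of edgeR, Benjamini-Hochberg over the 147 transcripts). It was -0.26 (SE 0.20, adjusted p = 0.446) with Mtdh guides. In these comparisons 12.9% of the 147 transcripts passed for Miat guides, with a median log2 fold change of 0.18 over all transcripts, and 10.9% passed for Mtdh guides, with a median of 0.01. When library totals that include Rn45s set the scale, Rmrp passed at -1.27 with Miat guides and -1.003 with Mtdh guides, but the medians of all transcripts then moved to -0.66 and -0.82. Between Mtdh and Miat guides, where 4.08% of transcripts passed, the log2 fold change of Rmrp was 0.19 (adjusted p = 0.610).

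By guide, Rmrp fell with sgMiat-96, at a log2 fold change of -0.77 (SE 0.19, adjusted p = 0.00710, edgeR). It was -0.19 with sgMiat-6, -0.33 with sgMtdh-1 and -0.19 with sgMtdh-2, none past the threshold. With library totals as the scale these 3 passed, at -0.99 (adjusted p = 0.0190), -0.95 (adjusted p = 0.0171) and -1.06 (adjusted p = 0.00855, edgeR). The sgMiat-6 value also passed in a fit of the sgMiat-6 and control libraries alone, at -0.54 (adjusted p = 2.15e-04, edgeR). The sgMtdh-2 value passed at -0.38 with totals outside Rn45s (adjusted p = 0.0205) and at -0.68 with sgMtdh-1 left out (adjusted p = 0.0206, edgeR). The shares of transcripts that passed were 19% for sgMiat-96, 26.5% for sgMiat-6, 10.9% for sgMtdh-1 and 18.4% for sgMtdh-2. Without the sgMiat-96-2 library, which had the highest Rn45s share, the value for sgMiat-96 was -0.62 (adjusted p = 0.0954, edgeR). Its call was also lost with no filter on low counts, at -0.94 (adjusted p = 0.555), and with the library number as a block, at -0.80 (adjusted p = 0.0763, edgeR). The direct comparison of sgMiat-96 with sgMiat-6, where 23.8% of transcripts passed, gave -0.59 for Rmrp (adjusted p = 0.0528). That difference passed at -0.37 with totals outside Rn45s (adjusted p = 0.0306), at -0.58 with TMM without Rn45s (adjusted p = 0.0161) and at -0.59 with limma-voom (adjusted p = 0.0190). It also passed without either library of sgMtdh-1, at -0.58 and -0.57 (adjusted p = 0.0304 and 0.0224, edgeR).

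**Figure D1:**
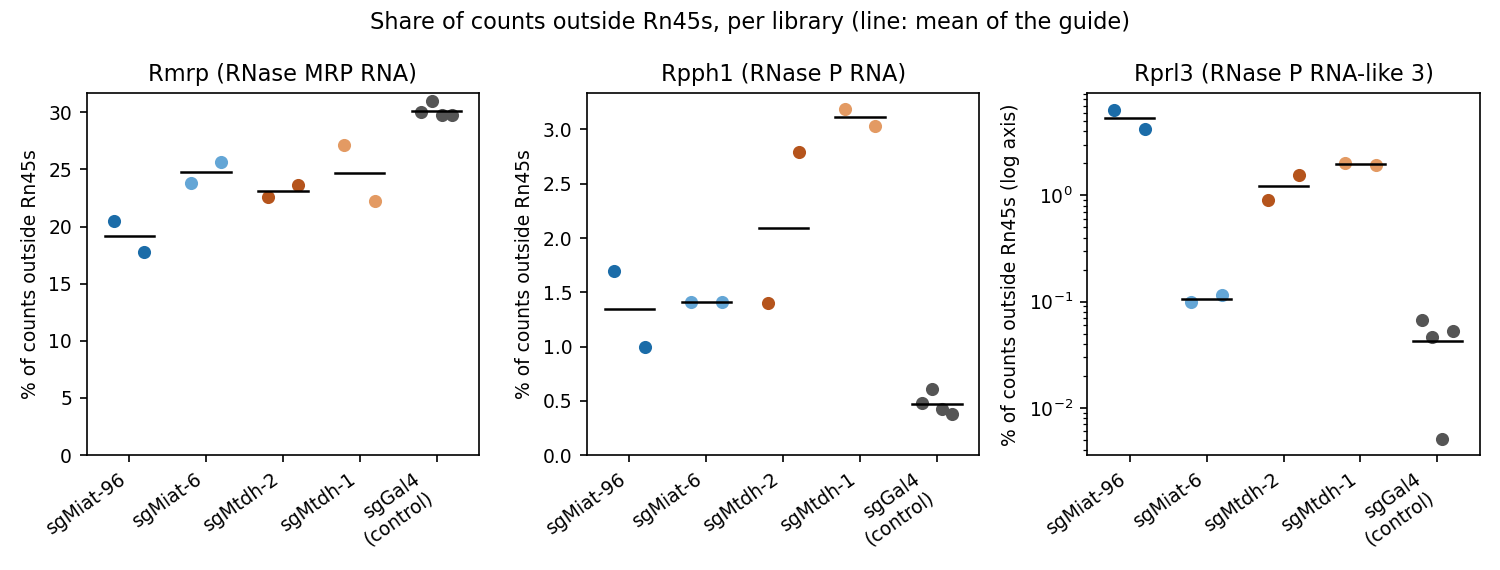
Percent of counts outside Rn45s for Rmrp, Rpph1 and Rprl3 (log axis) in each library, with points for libraries and lines for the mean of each guide. Outside Rn45s, Rmrp lies below the controls in all 8 libraries with a Miat or Mtdh guide, Rpph1 lies above them, and Rprl3 is at 4.25% and 6.37% with sgMiat-96 but at 0.0990% and 0.114% with sgMiat-6.

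Rpph1, the RNA of RNase P, took a higher share outside Rn45s with both sets of guides. It had 612, 467, 404 and 134 counts in the Miat libraries, 230, 1114, 455 and 313 in the Mtdh libraries, and 71, 133, 83 and 107 in controls. Of all counts it took 0.380%, 0.394%, 0.490% and 0.161% in the Miat libraries, 1.01%, 0.732%, 0.306% and 0.949% in the Mtdh libraries, and 0.210%, 0.277%, 0.197% and 0.166% in controls. On that scale the Mtdh libraries stood above every control, while the Miat libraries overlapped the controls, with sgMiat-96-2 below all 4. The means were 0.356% ± 0.139 with Miat guides, 0.749% ± 0.319 with Mtdh guides and 0.213% ± 0.0466 in controls (SD, n = 4 each). The exact permutation p was 0.143 for Miat guides against control and 0.0286 for Mtdh guides against control (adjusted p = 0.165 and 0.0476 over the 15 tests).

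Its share outside Rn45s was 1.41%, 1.41%, 1.70% and 1.00% in the Miat libraries and 3.19%, 3.03%, 1.40% and 2.79% in the Mtdh libraries. In controls it was 0.480%, 0.611%, 0.427% and 0.379%. Outside Rn45s all 8 libraries with a Miat or Mtdh guide stood above the highest control. The means were 1.38% ± 0.288, 2.60% ± 0.819 and 0.474% ± 0.1002 for Miat guides, Mtdh guides and controls (SD, n = 4 each), with an exact permutation p of 0.0286 for each target against control. In the group fit of edgeR, 38 of 147 transcripts had an unadjusted p under 0.05 with Miat guides, and 32 with Mtdh guides.

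In the fit of all transcripts Rpph1 passed in both comparisons. Its log2 fold change was 1.54 (SE 0.33, adjusted p = 0.00432, edgeR) with Miat guides, which is 2.92-fold, and 2.52 (SE 0.34, adjusted p = 2.30e-04) with Mtdh guides, which is 5.76-fold. These ranked 15 and 8 from the highest of 147 transcripts. The fold changes share the control libraries. With Miat guides the call was lost without the control-1 library, at a log2 fold change of 1.27 (adjusted p = 0.0773, edgeR). The Rpph1 share outside Rn45s of control-1, 0.480%, lay inside the control range of 0.379% to 0.611%. Each such fit was filtered and scaled anew, and the cause of the loss was not tested. The call was also lost with library totals as the scale, at 0.75 (adjusted p = 0.222, edgeR).

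Rpph1 rose with each of the 4 guides in the guide fit. The log2 fold change was 1.67 (adjusted p = 0.00141) with sgMiat-6, 1.41 (adjusted p = 0.00516) with sgMiat-96, 2.67 (adjusted p = 3.67e-05) with sgMtdh-1 and 2.35 (adjusted p = 7.14e-05) with sgMtdh-2, by edgeR. With library totals as the scale both Miat guides lost the call, at 0.86 (adjusted p = 0.168) for sgMiat-6 and 0.62 (adjusted p = 0.318, edgeR) for sgMiat-96. Both also lost it with the library number as a block, at 1.47 (adjusted p = 0.0522) and 1.22 (adjusted p = 0.0900, edgeR). For sgMiat-96 the call was lost with no filter on low counts, at 1.28 (adjusted p = 0.154), without the sgMiat-96-1 library, at 0.85 (adjusted p = 0.252), and without the control-1 library, at 1.12 (adjusted p = 0.0573, edgeR). For sgMtdh-2 the lowest value with 1 library left out, 1.69, came without the sgMtdh-2-2 library, and the lowest in all, 1.37 (adjusted p = 0.0226, edgeR), without the 3 libraries under 40000 counts, an alternative chosen after seeing the data. The guides of one target did not differ at the threshold, with a log2 fold change of -0.26 (SE 0.38) for sgMiat-96 against sgMiat-6 and -0.32 (SE 0.38) for sgMtdh-2 against sgMtdh-1. In the second of these, 0 of 147 transcripts passed with edgeR, against 1 with DESeq2 and 1 with limma-voom, and 16 had an unadjusted p under 0.05. Mtdh against Miat guides gave 0.98 (SE 0.33, adjusted p = 0.104, edgeR).

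**Figure D2:**
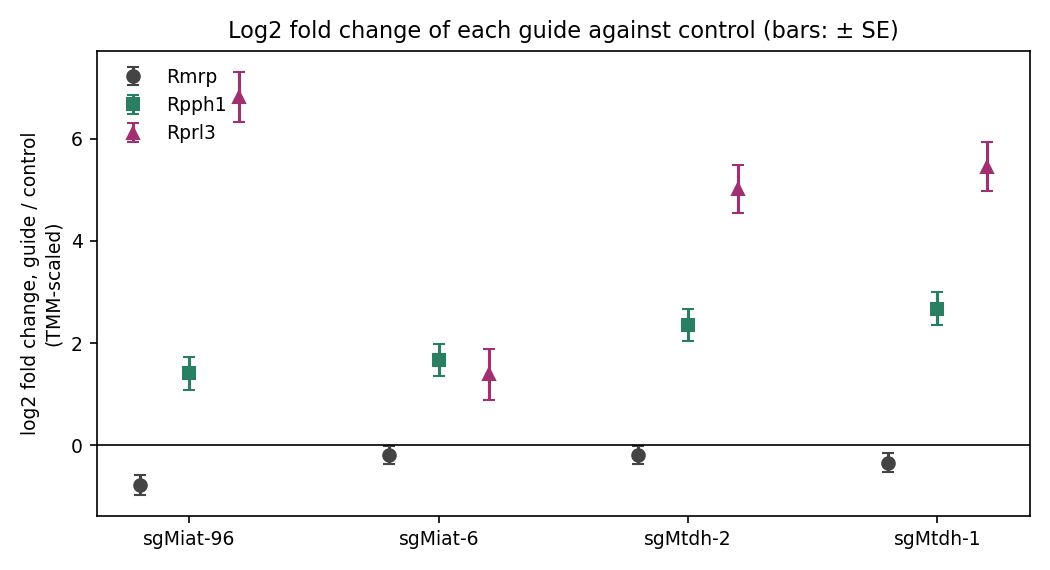
Log2 fold change of each guide against the 4 control libraries, with bars of ± 1 SE from the guide fit of edgeR. Rpph1 lies between 1.41 and 2.67 for all 4 guides, Rprl3 lies at 1.39 for sgMiat-6 and at 5.01 to 6.81 for the other 3, and Rmrp lies between -0.77 and -0.19.

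The ratio of Rpph1 to Rmrp within a library needs no scaling and leaves Rn45s out. Per 100 Rmrp counts there were 5.91, 5.48, 8.29 and 5.62 Rpph1 counts in the Miat libraries, 11.8, 13.6, 6.21 and 11.8 in the Mtdh libraries, and 1.60, 1.97, 1.43 and 1.28 in controls. No library with a Miat or Mtdh guide overlapped the controls, and the 95% exact counting intervals reached down to 4.69 in sgMiat-96-2 and up to 2.34 in the control-2 library. The mean log2 ratio was 2.01 higher with Miat guides (4.02-fold) and 2.75 higher with Mtdh guides (6.72-fold), each with an exact permutation p of 0.0286 (n = 4 each, adjusted p = 0.0476 over 15 tests). Mtdh libraries stood 0.74 above Miat libraries (exact permutation p = 0.0571, adjusted p = 0.0857). The sgMtdh-2-1 library lay among the Miat libraries.

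Taken per length, Rpph1 stayed below Rmrp in every library. With lengths of 325 bases for Rpph1 and 275 for Rmrp, as the deposited FPKM values imply, there were 5.35 ± 1.12 Rpph1 counts per 100 Rmrp counts with Miat guides, 9.18 ± 2.72 with Mtdh guides and 1.33 ± 0.253 in controls (SD, n = 4 each).

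**Figure D3:**
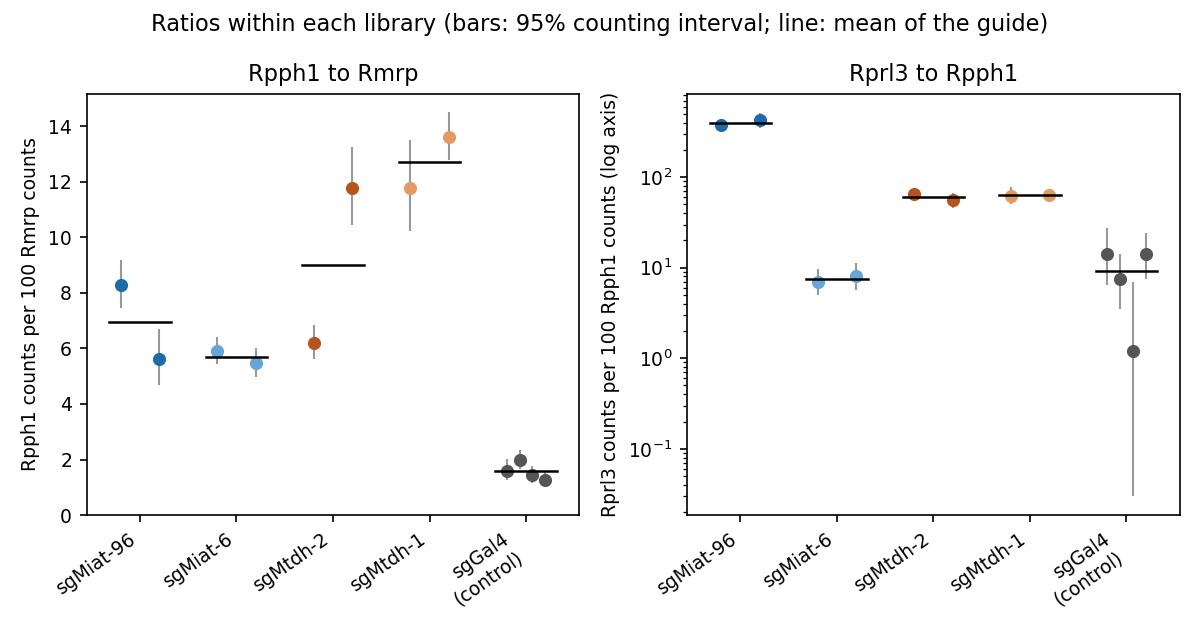
Rpph1 counts per 100 Rmrp counts and Rprl3 counts per 100 Rpph1 counts (log axis) in each library, with 95% exact counting intervals and lines at the mean of each guide. The Rpph1 to Rmrp ratio is 5.48 to 13.6 with the Miat and Mtdh guides and 1.28 to 1.97 in controls, while the Rprl3 to Rpph1 ratio is 375 and 425 with sgMiat-96 and 7.03 and 8.14 with sgMiat-6.

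Rprl3, the RNase P RNA-like gene on chromosome 8, differed widely between the Miat guides. It had 1513 and 569 counts in the sgMiat-96 libraries and 43 and 38 in the sgMiat-6 libraries. The Mtdh libraries had 144, 714, 294 and 174, and controls had 10, 10, 1 and 15. Its share outside Rn45s was 6.37% and 4.25% in the libraries of sgMiat-96 and 0.0990% and 0.114% in those of sgMiat-6. It was 0.904% and 1.55% in the libraries of sgMtdh-2 and 2.00% and 1.94% in those of sgMtdh-1. In controls it was 0.0676%, 0.0460%, 0.00514% and 0.0532%. Of all counts it took 1.83% and 0.686% in the libraries of sgMiat-96, 0.0267% and 0.0321% in those of sgMiat-6, 0.198% to 0.632% in the Mtdh libraries and 0.00238% to 0.0296% in controls, so that on this scale sgMiat-6-1 lay within the controls. The libraries of a guide lay close to each other compared with the distance between sgMiat-96, the Mtdh guides and sgMiat-6.

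The group fit called Rprl3 in both comparisons, at log2 fold changes of 5.83 (SE 1.14, adjusted p = 0.00257, edgeR) with Miat guides and 5.24 (SE 1.12, adjusted p = 0.00448) with Mtdh guides. The mean of the Miat group describes neither of its guides. Without sgMiat-96 the Miat value was 1.23 (adjusted p = 0.124), and without the sgMiat-96-1 library alone it was 4.86 (adjusted p = 0.00904, edgeR). The Mtdh call was lost with either guide left out, at 4.47 (adjusted p = 0.0632) without sgMtdh-1 and at 5.19 (adjusted p = 0.0521, edgeR) without sgMtdh-2. Without the 3 libraries under 40000 counts, both calls were lost, at 5.82 (adjusted p = 0.0532) with Miat guides and 5.08 (adjusted p = 0.154, edgeR) with Mtdh guides. Between Mtdh and Miat guides the value was -0.59 (adjusted p = 0.738), and its sign turned to 3.74 (adjusted p = 2.52e-04, edgeR) without sgMiat-96. The sign also turned with all libraries kept and 1 term per guide, at 1.13 (adjusted p = 0.0438, edgeR).

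The guide fit, in which each guide has its own mean, gave Rprl3 a log2 fold change of 6.81 (SE 0.49, adjusted p = 9.96e-08, edgeR) with sgMiat-96, which is 112-fold. It was 5.45 (SE 0.48, adjusted p = 1.48e-06) with sgMtdh-1 and 5.01 (SE 0.48, adjusted p = 4.33e-06) with sgMtdh-2, which are 43.8-fold and 32.3-fold. These calls held under all 29 alternatives run for each guide. With sgMiat-6 it was 1.39 (SE 0.50, adjusted p = 0.0538), which DESeq2 called at 1.29 (adjusted p = 0.0435). edgeR called it without sgMiat-96-2, sgMtdh-2-1 or sgMtdh-2-2, at 1.39, 1.37 and 1.38 (adjusted p = 0.0425, 0.0367 and 0.0328). sgMiat-96 differed from sgMiat-6 by 5.42 (SE 0.60, adjusted p = 2.61e-05, edgeR), the highest of the 147 transcripts in that comparison. sgMtdh-2 and sgMtdh-1 did not differ at the threshold, at -0.44 (SE 0.49, adjusted p = 0.770). In order of its share outside Rn45s, Rprl3 was highest with sgMiat-96, then with the Mtdh guides, then with sgMiat-6 and lowest in controls. The neighbours sgMtdh-1 and sgMtdh-2, and sgMiat-6 and control, were not separated by edgeR with all 12 libraries. Neither Miat guide was tested directly against a single Mtdh guide.

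**Figure D4:**
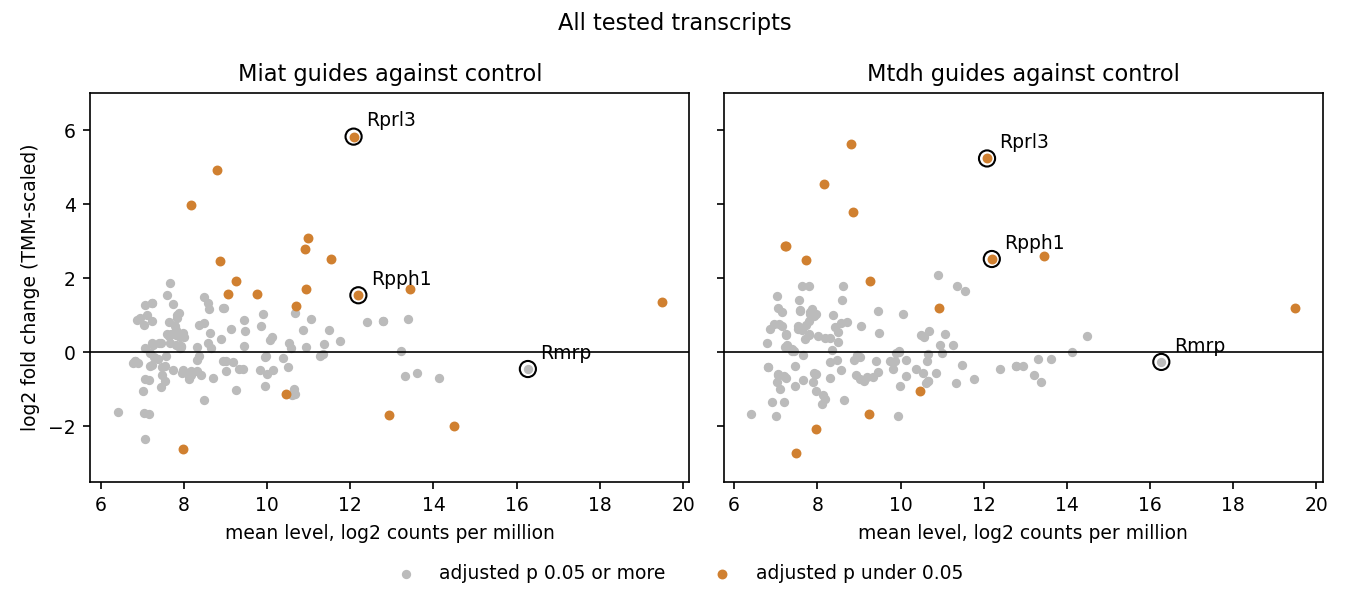
Log2 fold change against mean level for the 147 tested transcripts with Miat guides and with Mtdh guides against control, with orange points for an adjusted p under 0.05. Rprl3 has the highest fold change with Miat guides (5.83) and the second highest with Mtdh guides (5.24), and Rmrp lies below 0 in both without passing.

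Because Rprl3 and Rpph1 share short windows, the ratio of the 2 genes was taken in each library. Per 100 Rpph1 counts there were 375 and 425 Rprl3 counts in the libraries of sgMiat-96 and 7.03 and 8.14 in those of sgMiat-6. There were 64.6 and 55.6 in the libraries of sgMtdh-2 and 62.6 and 64.1 in those of sgMtdh-1. Controls had 14.1, 7.52, 1.205 and 14.02. The ratio was thus nearly the same in the 4 Mtdh libraries, in which the Rpph1 share ranged from 1.40% to 3.19%. It was over 100 with sgMiat-96, where Rprl3 had more counts than Rpph1. Per length, with 237 bases for Rprl3, there were 514 and 582 Rprl3 counts per 100 Rpph1 counts with sgMiat-96.

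Since shared reads could move between the rows, Rpph1 and Rprl1 to Rprl3 were also summed. The sum of the 4 rows was 662, 512, 1919 and 704 counts in the Miat libraries, 375, 1828, 749 and 487 in the Mtdh libraries, and 81, 143, 84 and 123 in controls. Rprl3 made up 78.8% and 80.8% of it in the sgMiat-96 libraries, 6.50% and 7.42% in the sgMiat-6 libraries, 35.7% to 39.3% with the Mtdh guides and 1.19% to 12.3% in controls. For the sum, the log2 fold change with Miat guides was 2.91 (adjusted p = 7.72e-04, edgeR), against 1.54 for Rpph1 alone. The sign of sgMiat-96 against sgMiat-6 also turned, to 1.92 (adjusted p = 0.00134, edgeR) for the sum against -0.26 for Rpph1 alone. Mtdh against Miat guides gave 0.15 (adjusted p = 0.912, edgeR) for the sum, against 0.98 for Rpph1 alone. In log2 ratio to Rmrp, Mtdh libraries stood 0.21 above Miat libraries for the sum (exact permutation p = 0.8), against 0.74 for Rpph1 alone. The values for RNase P RNA in these libraries therefore depend on which rows are counted as such.

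Rprl1 and Rprl2, the other RNase P RNA-like genes, stayed near 0. Rprl1 had 1, 2, 0 and 1 counts in the Miat libraries, 0 in all 4 Mtdh libraries, and 0, 0, 0 and 1 in controls. Rprl2 had 6, 5, 2 and 0 in the Miat libraries, 1, 0, 0 and 0 in the Mtdh libraries, and 0 in all 4 controls. A count of 0 allows 3 counts, which is 0.0106% to 0.0203% of counts outside Rn45s in the control libraries. In the sgMiat-96-1 library, with 1513 Rprl3 counts, Rprl1 had 0 and Rprl2 had 2. Of the 213 windows of 22 bases in Rprl3, 10 also occur in Rprl1 and 13 in Rprl2.

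Other RNAs of the same pathways gave few testable rows. Of 5 rows for small nucleolar RNAs of ribosomal RNA processing, only Snord22 had counts, at most 10 in a library, and none was tested. No transfer RNA row, which would hold the substrates of RNase P, was analysed here. Of 4 rows for other RNA polymerase III transcripts, Vaultrc5, a vault RNA, was tested. It had 63, 52, 98 and 98 counts in the Miat libraries, 65, 169, 68 and 87 in the Mtdh libraries, and 71, 107, 75 and 116 in controls. Its log2 fold changes of -0.39 with Miat guides and 0.46 with Mtdh guides did not pass (adjusted p = 0.650 and 0.548, edgeR). Rnu11 and Rnu12, RNAs of the minor spliceosome, were tested and did not pass in either comparison, and Terc, the telomerase RNA, had 1 count in all. Rn45s, the row of the ribosomal RNA precursor, rose by 1.35 (SE 0.22, adjusted p = 0.00132) with Miat guides and by 1.204 (SE 0.22, adjusted p = 0.00171, edgeR) with Mtdh guides on the log2 scale. Fragments of uncleaved precursor and of processed ribosomal RNA were not told apart in that row. A link to the Rmrp values was not tested.

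The transcripts most like Rmrp over the 12 libraries, by Pearson's r of the log2 share outside Rn45s, were the small nucleolar RNAs Snord91a (0.83), Snord15a (0.81) and Snord19 (0.80) and the miRNAs Mir181a-1 (0.74) and Mir92b (0.70). Those most like Rpph1 were B230208H11Rik (0.85), Serf2 (0.77), Gm10857 (0.76), Rprl3 (0.76) and 5730488B01Rik (0.74). For Rprl3, added after its values were seen, they were Serf2 (0.93), Scarna2 (0.90) and 5730488B01Rik (0.90). Rmrp and Rprl3 had an r of -0.81, and Rmrp and Rpph1 one of -0.54. The 12 libraries fall into 3 groups and 5 guides, and the shares of a library have 1 total and are bound to sum to 100%, so these values describe the libraries and carry no test.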

How the data were processed

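Small RNA of mouse stem-like medulloblastoma cells was sequenced in 12 libraries, 4 for each of 3 groups named in the labels. Each deposited table lists non-coding RefSeq transcripts with raw counts, per the file headers, and with FPKM and TPM values made by the authors. FPKM served only for the lengths it implies, which were whole within 0.001 for 8010 values, and TPM was not used. The submitters' processing notes name STAR, GRCm38 and mm10. Not given in the sources used here are the counter, read lengths, trimming and how reads matching several positions were handled. Those steps decide how reads shared by Rpph1 and Rprl3 were counted.

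Of the 4529 transcripts, 485 repeated another transcript of the same symbol in all libraries and were counted once. Tests used edgeR 4.0.16 in R 4.3.3, with filterByExpr by group (minimum count 10, minimum total 15), which kept 97.0% to 98.6% of counts, and TMM factors of 0.592 to 1.63. All 12 libraries entered a quasi-likelihood fit by group and another by guide. The biological coefficient of variation was 0.499. Adjustment was by Benjamini-Hochberg within a comparison, at 0.05, two-sided. Shares and ratios were compared by exact permutation tests. The code was tested on simulated data. Standard errors are the log2 fold change over the square root of the F statistic.

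Named genes were the 5 members, Rn45s, fixed lists of related RNAs and, for Rmrp and Rpph1, the 5 transcripts with the highest r. The members and lists were chosen with earlier results of these data known. Library pairs of a group differed by more than sampling noise, so none was counted as a duplicate. Alternatives were other scaling factors, filters and tools (DESeq2 1.42.0, limma-voom 3.58.1), a replicate block, 2-group fits, summed Rpph1 and Rprl rows, and each library or guide left out. Sequences were compared with Biopython 1.88, and Python 3.11.15 with scipy 1.17.1 was used for the other steps.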

Additional observations from a re-analysis of the deposited data

Results flagged for a closer look

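Among the 4 Miat libraries, the ratio of Rpph1 to Rmrp was 8.29 counts per 100 in sgMiat-96-1, against 5.48 to 5.91 in the other 3, a gap above Dixon's critical value for 4 samples. The gap was 0.847 of the group's range, and 0.817 on the log2 scale, where it was under that value. The Rn45s share of sgMiat-96-2 was 83.9%, against 71.2% to 73.0% in the other 3 Miat libraries, and was past the critical value on both scales (0.855 and 0.844 of the range). Of the 30 sets of 4 libraries examined in this way these 2 were past it on the linear scale, and chance alone marks about 1 in 20. On the log2 scale the Rpph1 share outside Rn45s of sgMtdh-2-1 was also past it, as were the Rprl3 shares and the Rprl3 to Rmrp ratio of control-3, which held 1 Rprl3 count.

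Rprl3 differed between the libraries labelled sgMiat-96 and those labelled sgMiat-6. The log2 fold change of sgMiat-96 against sgMiat-6 was 5.42 (SE 0.60, adjusted p = 2.61e-05, edgeR), and both sgMiat-96 libraries stood above both sgMiat-6 libraries. It stayed past the threshold in all 28 alternatives run for it, at 5.21 to 5.85. The sgMiat-6 libraries are also those with 49 and 30 Miat counts, and the Rn45s share was 71.2% and 83.9% with sgMiat-96 and 73.0% and 72.0% with sgMiat-6. The part of these in the difference was not tested.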

How the results depend on the processing

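Scaling by library totals gave log2 fold changes with Miat guides of -1.27 for Rmrp (adjusted p = 7.25e-04, edgeR here and below unless named) and 0.75 for Rpph1, which lost its call, and -1.003 for Rmrp with Mtdh guides (adjusted p = 0.00353). It called 33 transcripts for Miat guides and 46 for Mtdh guides, against 19 and 16, and 18.2% and 15.2% of those calls were higher, against 78.9% and 75.0%. DESeq2's size factors and the upper quartile gave 68.2% each for Miat guides, and totals outside Rn45s gave 63.6%, while the upper quartile and totals outside Rn45s gave 64.3% for Mtdh guides. Rmrp with Miat guides also passed at -0.46 with totals outside Rn45s, -0.54 with a minimum count of 30, -0.67 in the 2-group fit, -0.48 with 1 term per guide, -0.76 without sgMiat-6, -0.70 without sgMtdh-1 and -0.70 without sgMtdh-2, although the last 2 leave out no library of the comparison. With no filter Rpph1 lost its call for Miat guides (1.40, adjusted p = 0.119). limma-voom lost Rprl3 (4.203 for Miat guides, 5.54 for Mtdh guides, adjusted p = 0.109 and 0.0506). Without sgMiat-96 Rprl3 was 1.23 for Miat guides, and for Mtdh guides it was 4.47 without sgMtdh-1 and 5.19 without sgMtdh-2. Mtdh guides gave 10 calls with no filter, 9 with a minimum count of 30, 27 with 1 term per guide, 25 without sgMiat-96, 9 without sgMtdh-1 and 3 without sgMtdh-2, and Miat guides gave 33 with 1 term per guide. For Mtdh against Miat guides, Rpph1 passed with DESeq2 (1.06) and with 1 term per guide (0.97). There Rprl3 turned to 1.33 with limma-voom (adjusted p = 0.401). It turned and passed at 1.13 with 1 term per guide (adjusted p = 0.0438) and at 3.74 without sgMiat-96 (adjusted p = 2.52e-04). Rmrp turned to -0.20 without sgMiat-96. Calls there numbered 6, against 3 with a minimum count of 30, 12 with DESeq2, 2 in the 2-group fit, 24 with 1 term per guide, 45 without sgMiat-96 and 2 without sgMtdh-2. Between guides, Rpph1 for sgMiat-96 against sgMiat-6 turned to 0.17 with a minimum count of 30 and 1.92 when summed with the Rprl rows. Rmrp for sgMtdh-2 against sgMtdh-1 turned to -0.0224 with the upper quartile, -0.102 with library totals, -0.0946 with totals outside Rn45s, -0.12 with no filter, -0.17 with a minimum count of 30, -0.0728 in the 2-group fit and -0.0922 without sgMiat-96. The Rmrp share outside Rn45s with Miat guides differed from control by -10.97 points without sgMiat-6 and -5.37 without sgMiat-96, and the summed rows raised the difference of the Rpph1 share of all counts to 0.773 points (exact permutation p = 0.0286). Leaving out 1 library at a time gave Rpph1 with Miat guides 1.27 to 1.71, and 9 to 28, 8 to 18 and 2 to 15 calls for Miat guides, Mtdh guides and Mtdh against Miat guides. It gave -1.04 to 0.16 for Rprl3 with Mtdh against Miat guides, -0.59 to 0.11 for Rpph1 with sgMiat-96 against sgMiat-6, and -0.18 to 0.26 for Rmrp and -0.950 to 0.00156 for Rpph1 with sgMtdh-2 against sgMtdh-1. The fewest calls came without control-1 for Miat guides, and without control-1, control-4, sgMtdh-1-1 or sgMtdh-2-2 for Mtdh guides. Without the 3 libraries under 40000 counts, calls numbered 6, 6 and 2, Rpph1 with Miat guides was 1.25 (adjusted p = 0.103), and Rprl3 was 5.82 and 5.08 for Miat and Mtdh guides. The cause of these changes was not tested.

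The library numbers were not taken to pair the samples, since the deviations of same-numbered libraries correlated at -0.36 to 0.28 between guides. With the number as a replicate block, Rpph1 was 1.35 and 2.32 and Rprl3 5.45 and 4.89 for Miat and Mtdh guides, none past the threshold (adjusted p = 0.245, 0.0558, 0.0892 and 0.103), and 1, 0 and 2 transcripts passed. With the numbers of sgMtdh-2 crossed, an alternative chosen after seeing the data, 2, 5 and 2 passed, with Rpph1 at 1.30 for Miat guides and Rprl3 at 5.44 and 4.88. Totals of 22785 to 161038 counts limit all values. At this depth Rprl1 and Rprl2 did not pass the filter of the main fit, so no test of them is given.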
